A study of Mus musculus with 12 samples.

Results

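The genes described here are 10 transcripts of blood vessels and of the signals that build them. They are the growth factors Vegfa and Vegfb, the receptors Kdr, Flt1 and Tek, the endothelial transcripts Pecam1, Cdh5, Cd34 and Vwf, and the smooth muscle actin Acta2. They were chosen by name with earlier results of these data known, so counts of them set beside all probes are descriptions. Every array probe whose RefSeq accession belonged to 1 of them was taken. This gave 13 of the 55681 probes, since Vegfa, Kdr and Cd34 each had 2. The named genes on the array numbered 20660. All 13 probes were well above background on all 12 arrays, so the filter on dim probes removed none of the 10 genes.

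The arrays came from a mouse study of LR11, a sorting receptor of the LDL receptor family (SorLA) that is encoded by Sorl1. Male Lr11 -/- mice on the C57Bl6/J background, were set against WT littermates of the same strain. All mice were 12 weeks old and were fed an HFD with 60% of its calories as fat. The sample descriptions speak of 4 weeks of HFD and the treatment notes of feeding from weaning. Total RNA of snap-frozen subcutaneous white fat (scWAT) and brown fat (BAT) was hybridised to Agilent one-colour arrays, with 3 arrays for each combination of genotype and depot, 4 groups in all. Replicate numbers were given here only to name the arrays of a group. The labels neither number the animals nor tie a scWAT array to a BAT array, so p-values measure the spread between these arrays.

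Blood vessels of fat are lined by endothelial cells, which are held together at their junctions by the proteins of Cdh5 and Pecam1, and the larger vessels are wrapped by mural cells that contract through the actin of Acta2. Adipocytes secrete VEGF-A, which acts through the receptor of Kdr on endothelial cells and is bound by that of Flt1. They also secrete VEGF-B, which binds the receptor of Flt1. Brown fat burns lipid to make heat and is known for its dense network of capillaries.

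Array quality was assessed first. Each array had 32377 to 37002 spots well above background and its 75th percentile lay between 373.7 and 632.4 intensity units. Sorl1 stood at 0.11 to 1.21 on the 6 WT arrays and at -3.93 to -2.45 on the 6 Lr11 -/- arrays, on the log2 scale with 0 at the 75th percentile of the array, so the genotypes did not overlap in either tissue. Some arrays differed within their group. On WT scWAT replicate 2 the mean of 6 adipocyte markers (Fabp4 and Cfd the brightest) was 3.66, against 6.18 and 7.72 on the other WT scWAT arrays, and the mean of the 6 matched macrophage markers (Itgam and Csf1r the brightest) was 5.11, against 2.58 and 3.08. Transcripts of skeletal muscle (10 markers, Acta1 and Pvalb the brightest) had means of 4.75 to 7.99 on 5 arrays, namely WT scWAT 3, Lr11 -/- scWAT 1, WT BAT 1 and 3 and Lr11 -/- BAT 1, and of -4.89 to -3.76 on the other 7. Brown adipocyte markers (5 genes, Cox8b and Cidea the brightest) had means of 6.21 to 7.55 on the 6 BAT arrays. In scWAT of WT mice their means lay between -4.46 and 2.53, and in Lr11 -/- scWAT between 3.55 and 7.78. Epithelial markers (6 genes, Krt18 and Krt5 the brightest) reached a mean of 1.28 on Lr11 -/- scWAT replicate 1 and the 2 mesothelial markers (Msln and Upk3b) a mean of 2.47 on WT scWAT replicate 3.

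**Figure D1:**
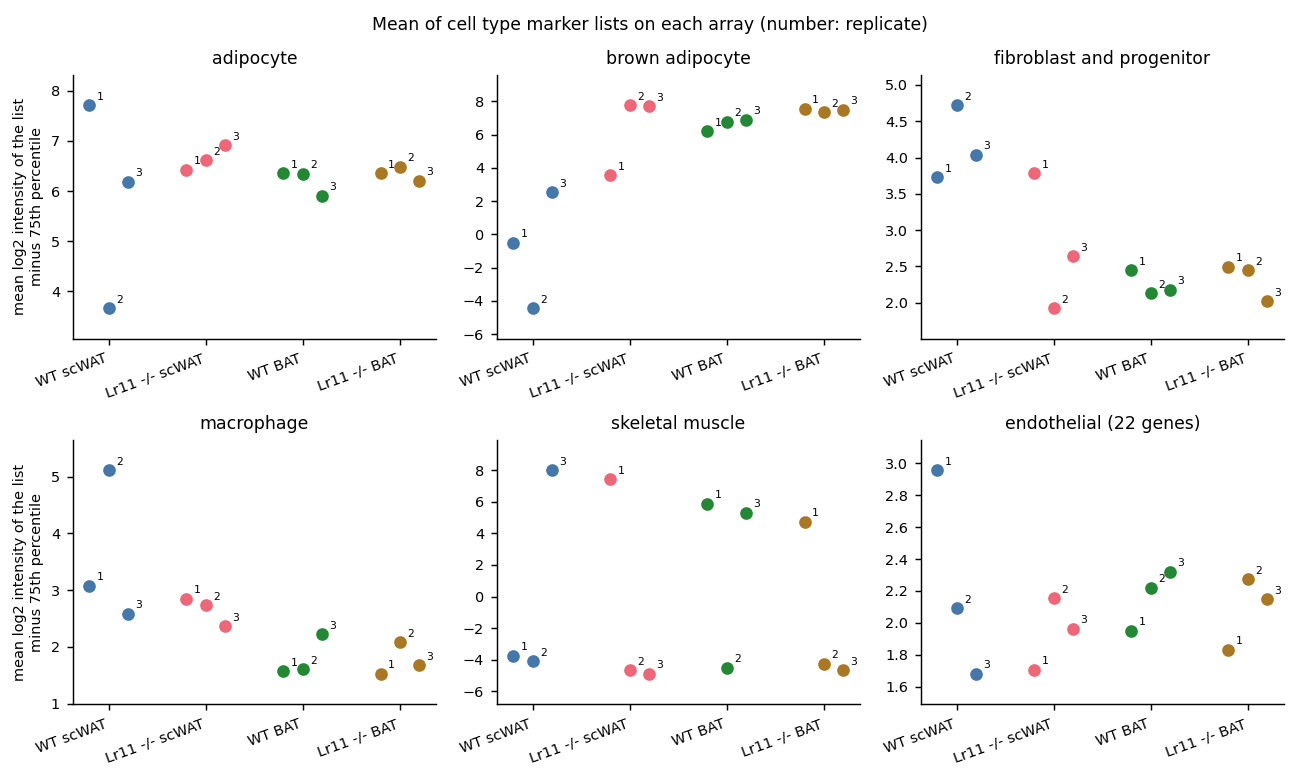
Mean log2 intensity of marker lists on each of the 12 arrays, with 0 at the 75th percentile of the array and the number beside a point giving the replicate. WT scWAT replicate 2 is low for adipocyte markers (3.66) and high for macrophage markers (5.11), 5 arrays carry skeletal muscle transcripts, and the mean of 22 endothelial genes beyond the 10 of interest runs from 1.68 to 2.96.

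The 10 vascular genes differed mainly between the depots of WT mice. In WT BAT, 4 of the 10 were higher than in WT scWAT (Vegfb, Vegfa, Flt1 and Kdr) and 3 were lower (Vwf, Acta2 and Cd34), where limma called 15.7% of all tested probes higher and 9.13% lower (24.8% in either direction) at a Benjamini-Hochberg adjusted p under 0.05. At an unadjusted p under 0.05 there were 8 of the 10, beside 40.1% of all probes. In scWAT, Lr11 -/- mice differed from WT in 1 of the 10, Cd34, which was lower, where 5.27% of all probes were called in either direction. At an unadjusted p under 0.05 there were 7 of the 10, beside 27.6% of all probes. In BAT, none of the 10 passed the limma test between genotypes, none had an unadjusted p under 0.05, and 0.0187% of all probes were called (0.00623% higher), with 2.12% at an unadjusted p under 0.05. The difference between BAT and scWAT was also called in none of the 10 in Lr11 -/- mice, again with none at an unadjusted p under 0.05, where 0.0405% of all probes were called. The genotype effect in scWAT minus that in BAT, which equals the depot difference in WT minus that in Lr11 -/- mice, was called in none of the 10 and in 0% of all probes, the smallest adjusted p of any probe being 0.168. At an unadjusted p under 0.05 it held 3 of the 10 (Cd34, Vegfb and Acta2) and 11% of all probes. A depot difference past the threshold in WT and not in Lr11 -/- mice is therefore not shown to differ between the genotypes. The arrays of the groups did not overlap in 8 of the 10 genes between the WT depots (40.2% of all probes), in 5 between genotypes in scWAT (20.4%), in 4 between the Lr11 -/- depots, all higher in BAT (23.2% in either direction, 9.19% lower), and in none between genotypes in BAT (12%, with 7.39% higher).

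**Figure D2:**
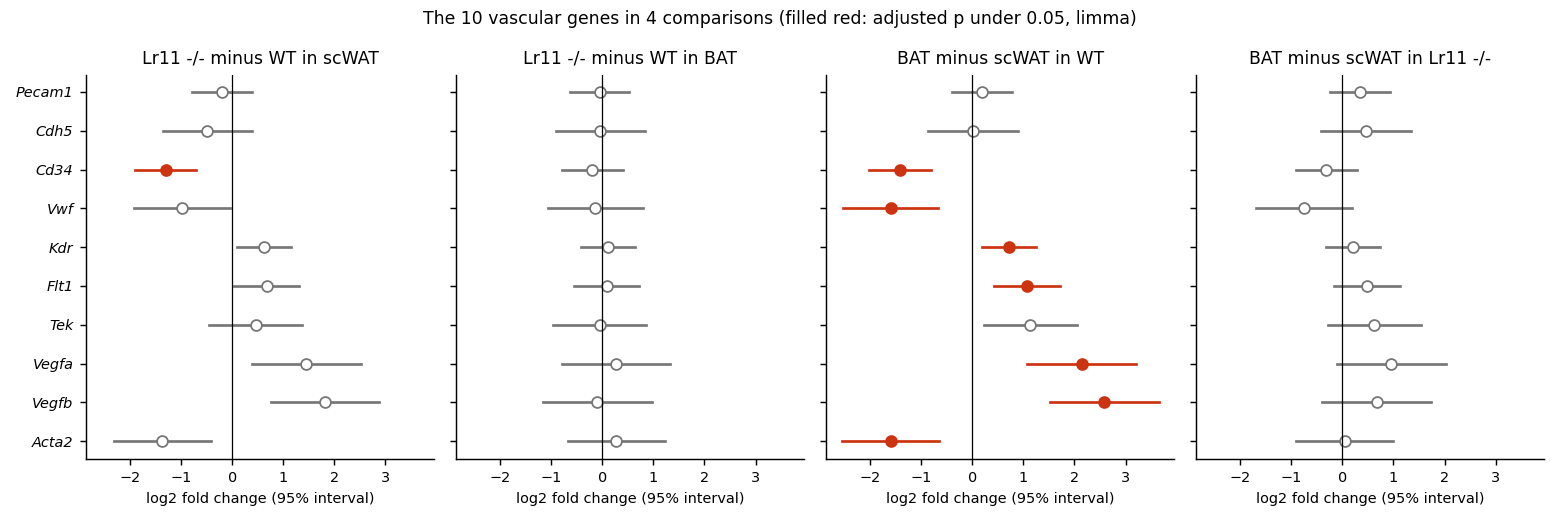
Log2 fold change of each gene with its 95% interval in 4 comparisons of the limma fit (3 arrays a group), filled red where the adjusted p is under 0.05. The 7 red points of the WT depot comparison run from -1.60 for Vwf to 2.58 for Vegfb, Cd34 is the only red point between genotypes, and every interval of the BAT genotype comparison includes 0.

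The median of the 10 log2 fold changes was 0.46 for BAT over scWAT in WT mice and 0.13 for Lr11 -/- over WT in scWAT, beside medians of 0.068 and 0.042 over all tested probes. These medians were small because the genes moved in opposite directions, with the growth factors and their receptors on the side of BAT and Cd34, Vwf and Acta2 on the side of WT scWAT. In whole tissue, fewer cells of a type and less RNA in each cell cannot be told apart.

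The VEGF ligands differed most. Vegfb, whose protein binds Flt1, stood at 2.75, 0.52 and 2.23 on the WT scWAT arrays and at 4.58, 4.53 and 4.15 on the WT BAT arrays. The depots did not overlap, as for 24.3% of all probes in that direction. BAT was 5.98-fold higher (log2 2.58, SE 0.48, limma adjusted p = 0.00634). The Lr11 -/- scWAT arrays, at 3.19, 3.62 and 4.15, lay above every WT scWAT array, as did 11.7% of all probes. The genotype difference of 1.82 on the log2 scale (SE 0.48) missed the threshold (limma adjusted p = 0.0537). In Lr11 -/- BAT the values were 4.33, 4.38 and 4.25, with a log2 difference from WT BAT of -0.09 (SE 0.48), and they lay 0.67 above Lr11 -/- scWAT without passing the test (limma adjusted p = 0.7).

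Vegfa, the main angiogenic ligand of fat, was read at 3.80, 1.41 and 3.13 in WT scWAT and at 4.91, 5.19 and 4.66 in WT BAT. The depots were again apart, and BAT was 4.41-fold higher (log2 2.14, SE 0.48, limma adjusted p = 0.012). Lr11 -/- scWAT stood at 4.39, 4.21 and 4.09, above all WT scWAT arrays, with a log2 difference of 1.45 (SE 0.48, limma adjusted p = 0.0912) that did not pass. The SD over 3 arrays was 0.15 in Lr11 -/- scWAT and 1.23 in WT scWAT. Lr11 -/- BAT stood at 5.20, 4.99 and 5.39, with a log2 difference from WT BAT of 0.27 (SE 0.48). The second Vegfa probe ordered the groups similarly, with a depot difference in WT of 2.81 (SE 0.49, limma adjusted p = 0.00504) and a genotype difference in scWAT of 1.73 (SE 0.49, limma adjusted p = 0.0627). In both genes the lowest of the 12 values was that of WT scWAT replicate 2, whose mean of adipocyte markers was below that of the other WT scWAT arrays. Without that array the depot difference in WT was 1.92 for Vegfb (limma adjusted p = 0.00769) and 1.46 for Vegfa (limma adjusted p = 0.0111), and the genotype difference in scWAT was 1.16 for Vegfb (limma adjusted p = 0.1) and 0.76 for Vegfa (limma adjusted p = 0.156). The part of the marker levels in these differences was not tested.

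**Figure D3:**
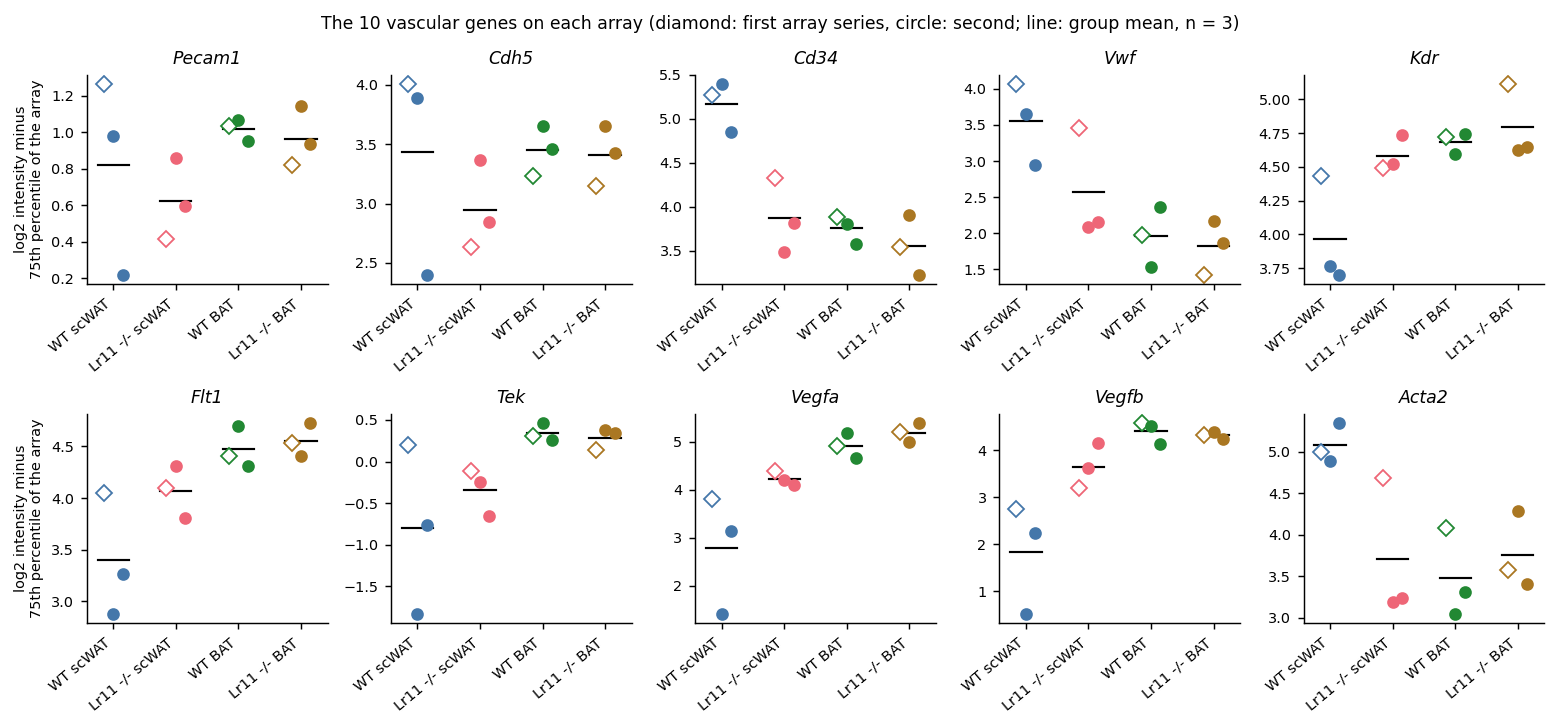
Log2 intensity of the 10 genes on each array, with 0 at the 75th percentile of the array, diamonds for the first array series named in the sample titles, circles for the second, and lines for group means of 3 arrays. Vegfa, Vegfb, Flt1 and Kdr lie higher on the WT BAT arrays than on the WT scWAT arrays, Cd34, Vwf and Acta2 lie lower, and the 2 BAT groups overlap in every panel.

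RefSeq promoters, from 250 bases before to 50 bases after the start on GRCm38.p6, were listed for 7 of the 10 genes. None was listed for Pecam1, Cdh5 or Vwf. Vegfb and Vegfa, the genes with the largest positive depot difference, and Cd34 and Acta2, which were lower in BAT, are shown so that the start regions of genes that moved in opposite directions can be read side by side. Each is given 5′ to 3′ on the strand of its gene, with capitals for matches on either strand to GGGCGG (GC box), GGAAG (core of ETS factor sites), ACGTG (core of the hypoxia response element) and TATAA (TATA box). Where 2 matches touch or overlap, their capitals run together. Vegfb lies on the minus strand at chr19:6987602-6987901, Vegfa on the minus strand at chr17:46032328-46032627, Cd34 on the plus strand at chr1:194938571-194938870 and Acta2 on the minus strand at chr19:34255324-34255623.
Vegfb: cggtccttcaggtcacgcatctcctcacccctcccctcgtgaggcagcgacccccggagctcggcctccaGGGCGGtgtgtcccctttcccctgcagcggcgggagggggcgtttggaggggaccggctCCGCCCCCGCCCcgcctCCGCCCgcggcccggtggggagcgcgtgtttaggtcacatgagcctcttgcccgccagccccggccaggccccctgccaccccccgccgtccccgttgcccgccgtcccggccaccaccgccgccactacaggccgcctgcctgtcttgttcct
Vegfa: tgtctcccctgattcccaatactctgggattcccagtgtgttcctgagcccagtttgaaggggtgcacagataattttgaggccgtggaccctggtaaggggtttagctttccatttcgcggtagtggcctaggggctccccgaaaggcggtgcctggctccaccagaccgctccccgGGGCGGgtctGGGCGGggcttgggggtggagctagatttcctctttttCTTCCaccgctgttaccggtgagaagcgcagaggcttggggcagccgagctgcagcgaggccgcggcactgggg
Cd34: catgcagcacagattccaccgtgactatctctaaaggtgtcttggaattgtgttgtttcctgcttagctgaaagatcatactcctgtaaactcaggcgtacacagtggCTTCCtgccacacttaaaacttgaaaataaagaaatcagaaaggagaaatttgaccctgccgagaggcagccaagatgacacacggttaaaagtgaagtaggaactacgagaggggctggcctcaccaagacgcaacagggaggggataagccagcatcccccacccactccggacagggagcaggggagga
Acta2: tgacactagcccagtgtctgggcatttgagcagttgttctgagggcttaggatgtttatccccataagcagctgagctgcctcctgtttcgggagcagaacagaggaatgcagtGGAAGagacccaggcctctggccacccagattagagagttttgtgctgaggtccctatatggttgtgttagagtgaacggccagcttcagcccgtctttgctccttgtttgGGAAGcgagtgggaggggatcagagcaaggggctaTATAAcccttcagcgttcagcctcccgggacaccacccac

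The GC box was found 4 times in the Vegfb window and 2 times in that of Vegfa, and also 3 times in Flt1 and 2 times in Kdr. It was not found in Cd34, Acta2 or Tek, and 35.7% of the 32851 promoters of this length held it. The G and C content was 75.3% for Vegfb and 62% for Vegfa, against 50% for Cd34 and 54.7% for Acta2. The ETS core, present in 71.4% of all promoters, occurred in Vegfa, Cd34 and Acta2 but not Vegfb. It was also found 3 times in Flt1 and 1 time in Kdr. The TATA box (24.9% of all) was found 1 time in Acta2, at base 11 after the start. It was also found 2 times in Flt1, as overlapping matches at -32 and -31. The hypoxia core (19.6% of all) was in none of the 4 windows shown. A second, internal start is listed for Vegfa, whose window held it 1 time. These matches are descriptions of letters and were not tested against the expression values.

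The VEGF receptors followed their ligands at smaller size. Flt1, the receptor shared by VEGF-A and VEGF-B, stood at 4.04, 2.88 and 3.27 in WT scWAT and at 4.41, 4.69 and 4.31 in WT BAT. The depots did not overlap and BAT was 2.10-fold higher (log2 1.07, SE 0.29, limma adjusted p = 0.0236). In Lr11 -/- scWAT the arrays read 4.09, 4.31 and 3.80, overlapping with WT scWAT (log2 0.67, SE 0.29, limma adjusted p = 0.164). Lr11 -/- BAT read 4.53, 4.41 and 4.72, all above Lr11 -/- scWAT, as in 14% of all probes, with a log2 difference of 0.49 (SE 0.29, limma adjusted p = 0.655).

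Kdr, the main signalling receptor of VEGF-A, read 4.44, 3.76 and 3.70 in WT scWAT, 4.49, 4.52 and 4.74 in Lr11 -/- scWAT, 4.72, 4.60 and 4.74 in WT BAT and 5.11, 4.63 and 4.65 in Lr11 -/- BAT. WT scWAT lay lowest, below every array of the other groups. The depot difference in WT was 0.72 (SE 0.24, limma adjusted p = 0.0496), just inside the threshold, and the genotype difference in scWAT was 0.62 (SE 0.24, limma adjusted p = 0.129). The second Kdr probe gave 1.21 for the depots (SE 0.37, limma adjusted p = 0.0382) with overlapping arrays, and 0.36 for the genotypes (SE 0.37). The depot difference of Kdr passed in 8 of 26 alternative settings that give a test, so its call rests on the setting.

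Tek, the angiopoietin receptor of endothelial cells, was read at 0.20, -1.83 and -0.76 in WT scWAT and at 0.31, 0.46 and 0.26 in WT BAT. The depots did not overlap, but the log2 difference of 1.14 (SE 0.41) missed the threshold (limma adjusted p = 0.0643). Lr11 -/- scWAT read -0.12, -0.25 and -0.65, inside the range of WT scWAT, and Lr11 -/- BAT read 0.13, 0.38 and 0.35, overlapping with WT BAT. The lowest value was again that of WT scWAT replicate 2. Without it the depot difference was 0.62 (limma adjusted p = 0.167), and the genotype difference in scWAT turned from 0.46 to -0.06.

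The junction genes of the endothelium gave a different picture from the VEGF axis. Cdh5, which encodes VE-cadherin, read 4.01, 3.89 and 2.40 in WT scWAT, 2.64, 3.37 and 2.84 in Lr11 -/- scWAT, 3.23, 3.65 and 3.46 in WT BAT and 3.15, 3.66 and 3.42 in Lr11 -/- BAT. All 4 groups overlapped. The depot difference in WT was 0.01 (SE 0.40, 95% interval -0.86 to 0.89) and turned to -0.20 under quantile normalization and to -0.30 without scaling. The genotype difference was -0.49 in scWAT (SE 0.40, limma adjusted p = 0.452) and -0.04 in BAT (SE 0.40).

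Pecam1, which encodes the junction protein CD31, read 1.26, 0.98 and 0.22 in WT scWAT, 0.42, 0.86 and 0.60 in Lr11 -/- scWAT, 1.03, 1.07 and 0.95 in WT BAT and 0.82, 1.14 and 0.93 in Lr11 -/- BAT. Every pair of groups compared overlapped. The depot difference in WT was 0.20 (SE 0.26, 95% interval -0.39 to 0.78) and was -0.12 without scaling. The genotype difference was -0.20 in scWAT (SE 0.26, limma adjusted p = 0.66) and -0.05 in BAT (SE 0.26). For both genes WT scWAT replicate 3, which carried muscle and mesothelial transcripts, was the lowest of its group. In Cdh5 the interval between the WT depots leaves room for a change near 2-fold. That between genotypes in scWAT (95% interval -1.36 to 0.39) leaves room for a fall of more than 2-fold. A p that missed the threshold therefore does not show equal levels.

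Cd34, a surface sialomucin of endothelial cells that is also found on progenitors of fat, was highest in WT scWAT. It read 5.27, 5.40 and 4.86 in WT scWAT, 4.32, 3.48 and 3.82 in Lr11 -/- scWAT, 3.89, 3.80 and 3.58 in WT BAT and 3.55, 3.90 and 3.23 in Lr11 -/- BAT. WT scWAT lay above all 9 other arrays, and the other groups overlapped. Lr11 -/- scWAT was 2.46-fold lower than WT scWAT (log2 -1.30, SE 0.27, limma adjusted p = 0.0381), and its arrays were apart, as were those of 8.76% of all probes in that direction. WT BAT was 2.67-fold lower than WT scWAT (log2 -1.42, SE 0.27, limma adjusted p = 0.00682). The second, dimmer Cd34 probe gave -1.15 between genotypes in scWAT (SE 0.34, limma adjusted p = 0.0688, arrays apart) and -0.80 between depots in WT (SE 0.34, limma adjusted p = 0.106), so it did not pass in either. The mean of fibroblast and progenitor markers (7 genes, Dcn and Col1a1 the brightest) was 3.73 to 4.72 in WT scWAT and 2.02 to 2.50 in BAT. In Lr11 -/- scWAT it was 1.92 to 3.78, overlapping with WT scWAT. Of the 7, 1 was called lower between genotypes in scWAT, beside 1.87% of all probes. The macrophage markers had means of 2.58 to 5.11 in WT scWAT, 2.37 to 2.85 in Lr11 -/- scWAT and 1.53 to 2.23 in BAT. All 7 fibroblast and progenitor markers were well above background in all groups. The part of both lists in the Cd34 difference was not tested.

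Vwf, the clotting factor stored by endothelial cells and platelets, read 4.07, 3.66 and 2.94 in WT scWAT and 1.97, 1.53 and 2.36 in WT BAT. The depots did not overlap, as for 15.9% of all probes in that direction, and BAT was 3.03-fold lower (log2 -1.60, SE 0.42, limma adjusted p = 0.0218). Lr11 -/- scWAT read 3.46, 2.09 and 2.15, overlapping with WT scWAT (log2 -0.99, SE 0.42, limma adjusted p = 0.162), and Lr11 -/- BAT read 1.43, 2.17 and 1.86. Platelet markers (3 genes, Pf4 and Ppbp the brightest) had list means of -0.90 to 0.38 in WT scWAT, -1.48 to 0.85 in Lr11 -/- scWAT, -1.52 to -1.32 in WT BAT and -0.96 to -0.87 in Lr11 -/- BAT. WT BAT was thus below WT scWAT in both Vwf and platelet markers, and the part of platelets was not tested.

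Acta2, the smooth muscle actin of mural cells, read 5.0, 4.89 and 5.34 in WT scWAT and 4.08, 3.05 and 3.31 in WT BAT. BAT was 3.03-fold lower (log2 -1.60, SE 0.43, limma adjusted p = 0.0231) with no overlap. Lr11 -/- scWAT read 4.69, 3.19 and 3.24, all below WT scWAT, with a log2 difference of -1.37 (SE 0.43, limma adjusted p = 0.0795) that missed the threshold. Replicate 1 stood 1 unit or more above the other 2 arrays in Lr11 -/- scWAT. That array is of the first array series, and its mean was 7.42 for skeletal muscle markers, against -4.67 and -4.89 on the other 2, and 1.28 for epithelial markers, against -3.61 and -3.97. Their part in the Acta2 values was not tested. Without that array the difference was -1.86 (limma adjusted p = 0.00729), and Acta2 was then the single gene of the 10 whose genotype effect differed between scWAT and BAT (limma adjusted p = 0.0413), in a fit that called 3.71% of all probes for this difference. The scWAT effect minus the BAT effect was -1.65 over all arrays (limma adjusted p = 0.408) and 0.19 in the first series alone, with no test. Lr11 -/- BAT read 3.58, 4.28 and 3.40, overlapping with WT BAT (log2 0.28, SE 0.43).

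When the 4 groups were ordered by mean level, WT scWAT was lowest for Vegfa, Vegfb, Flt1, Kdr and Tek and highest for Cd34, Vwf and Acta2. In 7 of these 8 genes Lr11 -/- scWAT lay between WT scWAT and both BAT groups, the exception being Acta2. How many of all probes followed such an order was not counted, so it is not shown to be particular to these genes. Between neighbours in this order of the same tissue or genotype, the step from WT scWAT to Lr11 -/- scWAT in Cd34 was the only one that passed the test. The comparisons of Lr11 -/- scWAT and of WT BAT with WT scWAT share the WT scWAT arrays, so their like signs are not independent.

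The array left out mattered for the genotype comparison in scWAT. The number of the 10 genes called ranged from 0 to 5 over the 12 fits that each left out 1 array, and the share of all probes called moved with it, from 0.00934% to 19.8%, so the 5.27% over all arrays depends on single arrays too. Without WT scWAT replicate 1 there were 5 (Cd34, Flt1, Vegfb, Vegfa and Kdr), beside 13.7% of all probes. Without WT scWAT replicate 3 there were 3 (Cd34, Cdh5 and Vegfb), beside 14.4%, and without Lr11 -/- scWAT replicate 1 there were 4 (Vwf, Cd34, Acta2 and Vegfb), beside 19.8%. There were 0 without WT scWAT replicate 2, without Lr11 -/- scWAT replicates 2 or 3 and without any 1 of the 6 BAT arrays, fits that called at most 0.691% of all probes. Cd34 itself ranged from -1.52 to -1.10 and passed in 3 of these 12 fits. The WT depot comparison ranged from 2 to 8 genes and from 10.2% to 31.9% of all probes, with 4 genes without WT scWAT replicate 2 (16.5% of all probes), 4 without WT BAT replicate 1 (12.1%) and 2 (Cd34 and Vegfb) without WT BAT replicate 2 (10.2%). Cd34 and Vegfb passed in all 12, Vegfa in 11, and Vwf, Flt1 and Acta2 in 9 each.

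**Figure D4:**
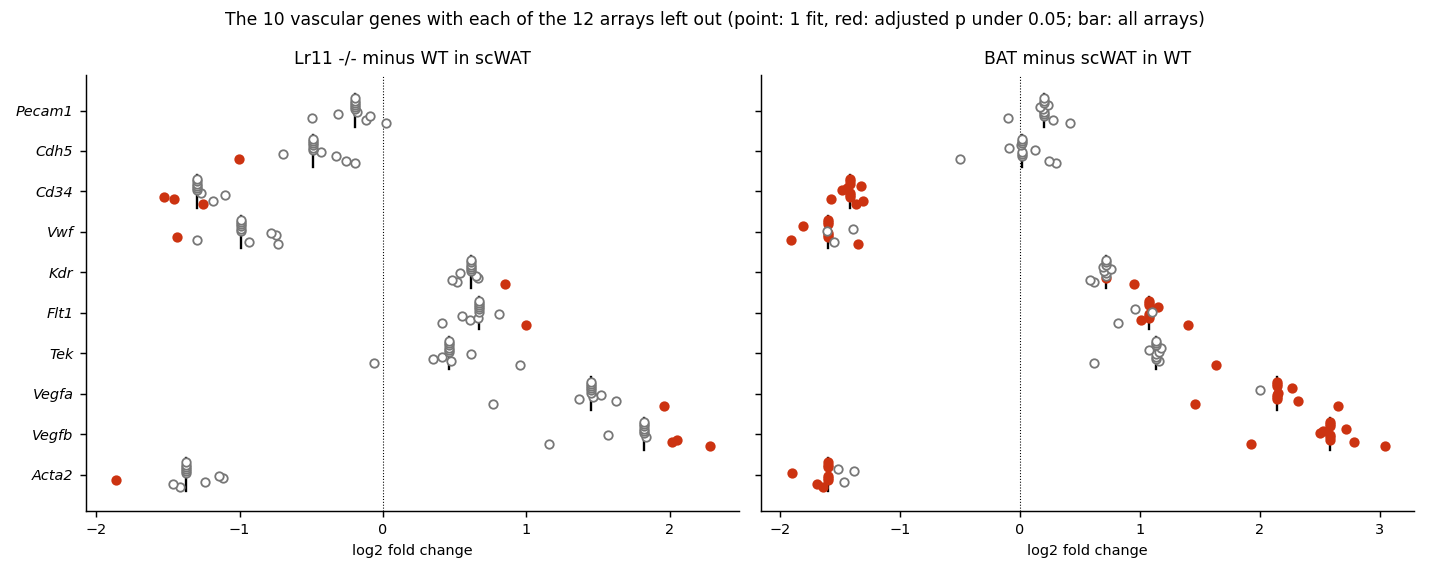
Log2 fold change of each gene when each of the 12 arrays is left out in turn, red where the adjusted p stays under 0.05, with bars at the value over all arrays. Cd34 and Vegfb are red in all 12 fits of the WT depot comparison, while Cd34 is red in 3 of 12 for the genotype comparison in scWAT.

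The array series named in the titles also divided the data, replicate 1 of each group belonging to the first series and replicates 2 and 3 to the second. Within the first series, with 1 array a group and no test, the WT depot difference was 1.82 for Vegfb, 1.11 for Vegfa, 0.36 for Flt1, 0.28 for Kdr, -1.38 for Cd34, -2.10 for Vwf and -0.92 for Acta2. Within the second it was 2.96, 2.65, 1.43, 0.94, -1.43, -1.35 and -1.94 in the same order. All 7 had the same sign in both, but they were picked as called over the arrays of both series, so this is no independent support. Among the genes not called, Cdh5 (-0.78 and 0.41) and Pecam1 (-0.23 and 0.41) differed in sign between the first and second series. The scWAT arrays of the first series lay on slide 1 and its BAT arrays on slide 3, so depot and slide cannot be told apart there. All arrays of the second series lay on slide 2. The genotype difference in scWAT was -0.95 and -1.48 for Cd34, 0.44 and 2.51 for Vegfb, 0.59 and 1.88 for Vegfa and -0.31 and -1.90 for Acta2 in the first and second series. With the slide as a block, 5 of the 10 genes passed between the WT depots, beside 12.4% of all probes. Vwf, Acta2 and Kdr no longer passed and Tek now passed (1.49, limma adjusted p = 0.0417). Cd34 still passed between genotypes in scWAT (limma adjusted p = 0.0448), where 2.84% of all probes were called. Leaving out the 5 arrays with muscle transcripts was a choice made after seeing the data. It leaves 1 WT BAT array, assumed to vary like the other groups. For the genes highest in WT scWAT, the genotype difference in scWAT was then -1.68 for Cd34, -1.74 for Vwf and -1.73 for Acta2. The WT depot difference was 2.89 for Vegfb, 2.59 for Vegfa, -1.53 for Cd34 and -1.90 for Acta2.

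Other vascular genes were examined by role. The lists held 88 genes beyond the 10, of which 87 had a named probe and 83 were tested. Between genotypes in scWAT, 2 of the 83 passed, both lower in Lr11 -/- mice, where 1.87% of all probes were called lower. They were the ligands Vegfc, which drives lymphatic growth (log2 -1.73, SE 0.29, limma adjusted p = 0.0263), and Pdgfa, a mitogen of mesenchymal cells (log2 -1.41, SE 0.35, limma adjusted p = 0.0477). In BAT none of the 83 passed between genotypes and none had an unadjusted p under 0.05. For BAT over scWAT in WT mice, 7 of the 83 (8.43%) were higher and 15 (18.1%) lower, beside 15.7% and 9.13% of all probes. In Lr11 -/- mice none passed and 10 (12%) had an unadjusted p under 0.05, beside 9% of all probes. The shares of all probes in the WT depot comparison, 15.7% higher and 9.13% lower, also stand behind the counts of each list. The median log2 difference of the 83 in WT was -0.34, with 31 above 0.

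The 22 further endothelial genes mostly did not pass the test. In WT mice 1 of the 22 passed between depots, Plvap, the diaphragm protein of fenestrated capillaries, which was lower in BAT (log2 -2.44, SE 0.43, limma adjusted p = 0.00506). The median of the list was -0.04 between the WT depots and -0.28 between genotypes in scWAT, where none passed and 2 (9.09%) had an unadjusted p under 0.05, beside 27.6% of all probes. Of the lymphatic genes, 3 of 5 were tested and 1 passed between the WT depots, Pdpn, a membrane glycoprotein of lymphatic endothelium and of fibroblasts, lower in BAT (log2 -4.06, SE 1.0, limma adjusted p = 0.0168).

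Mural genes moved in both directions. Of 13 tested, 4 (30.8%) were higher in WT BAT (Cspg4, Kcnj8, Mcam and Rgs5), beside 15.7% of all probes, and 1 (7.69%) lower (Tagln), beside 9.13%. The median of the list between the WT depots was 0.06, with 7 of the 13 above 0. Cspg4 was higher by 2.02 (SE 0.36, limma adjusted p = 0.00569) and Kcnj8 by 1.47 (SE 0.34, limma adjusted p = 0.0141), while Tagln, like Acta2, fell by 1.28 (SE 0.39, limma adjusted p = 0.0361). Between genotypes in scWAT none of the 13 passed and 4 (30.8%) had an unadjusted p under 0.05, near the 27.6% of all probes. Pdgfrb, the receptor that recruits mural cells, had non-overlapping arrays there and a log2 value of -1.69 (SE 0.47, limma adjusted p = 0.0593).

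Among 13 other angiogenic ligands, 3 (23.1%) were lower in WT BAT and none higher, beside 9.13% and 15.7% of all probes: Vegfd, a second lymphatic growth factor (log2 -2.88, SE 0.34, limma adjusted p = 0.00191), Adm, a vasodilator peptide (log2 -2.02, SE 0.41, limma adjusted p = 0.00805), and Pdgfa (log2 -1.10, SE 0.35, limma adjusted p = 0.0442). The VEGF family therefore did not move as a block, Vegfa and Vegfb being higher and Vegfd lower in BAT. Of 6 tested receptors, Nrp1, a co-receptor of VEGF-A, was higher (log2 1.43, SE 0.39, limma adjusted p = 0.0235), and Pdgfra (log2 -2.24, SE 0.52, limma adjusted p = 0.0138), Cxcr4 (log2 -2.68, SE 0.77, limma adjusted p = 0.0293) and Fgfr1 were lower. None of 8 tested genes of the Notch and ephrin list passed.

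In the hypoxia pathway, whose factors induce Vegfa, 2 of 11 genes (18.2%) were higher, near the 15.7% of all probes, and 2 (18.2%) lower in WT BAT, beside 9.13%. The higher were Egln1, an oxygen-sensing hydroxylase (log2 2.59, SE 0.53, limma adjusted p = 0.00844), and Epas1, which encodes HIF-2α (log2 1.33, SE 0.34, limma adjusted p = 0.02). The lower were the glucose transporter Slc2a1 (log2 -2.04, SE 0.58, limma adjusted p = 0.0282) and Vhl, which marks HIF proteins for degradation (log2 -1.08, SE 0.35, limma adjusted p = 0.044). Of 7 angiogenesis inhibitors, 4 (57.1%) were lower in WT BAT and none higher, beside 9.13% and 15.7% of all probes. Thbs2, a thrombospondin (log2 -4.56, SE 1.096, limma adjusted p = 0.0154), and Serpinf1, which encodes PEDF (log2 -2.39, SE 0.44, limma adjusted p = 0.00595), had the smallest adjusted p-values, and Thbs1 and Col18a1 also fell. Of the 7 fibroblast and progenitor markers, 4 were likewise lower in WT BAT and none higher. The part of such cells in the inhibitor differences was not tested.

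**Figure D5:**
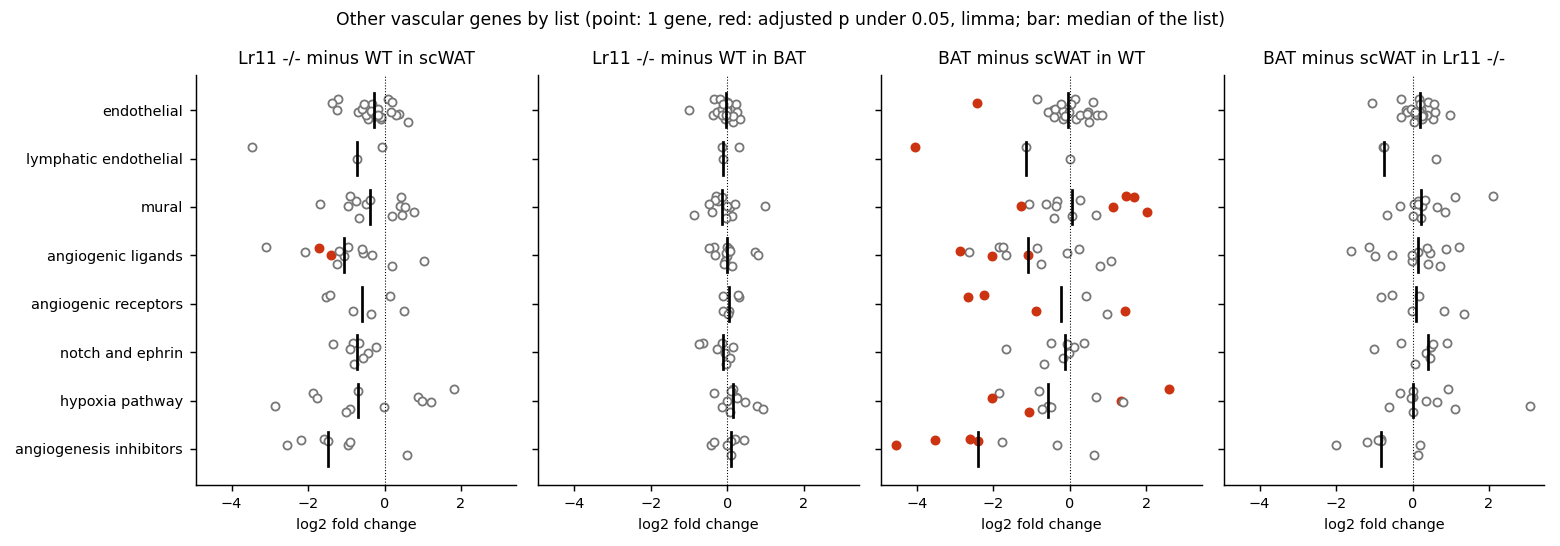
Log2 fold change of 83 further vascular genes in 8 lists for 4 comparisons, each point 1 gene, red where the limma adjusted p is under 0.05, with bars at the list median. The 22 red points of the WT depot comparison include 4 angiogenesis inhibitors below 0 and 4 mural genes above 0, and no point is red in BAT between genotypes.

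The genes whose levels ran most like those of 2 of the 10 were sought over the 12 arrays among 14702 named genes, as a description of arrays that share tissue and series. For Cdh5 they were Arap3 (Pearson's r = 0.94), Pecam1 (0.94), Txndc11 (0.92), N4bp3 (0.92) and Prkch (0.92), so that Pecam1, a gene of the same junctions, ranked second. For Vegfa they were Ift172, Tas2r113, Proca1, Acadsb and Fmo1, each with r of 0.98.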

How the data were processed

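The deposited files were the scanner output of 12 Agilent one-colour arrays, per the file headers read with Agilent Feature Extraction (10.10 per the labels). The authors deposited intensities, of which the processed signal, background-subtracted by that software, was used. Flags for spots well above background and for outliers were taken from the same files, and control spots and outlier spots were left out. Here log2 of the processed signal minus the 75th percentile of the array was averaged over spots of 1 probe. Of 55681 probes, 28685 carried a RefSeq accession and 27235 were named through RefSeq (GRCm38.p6, names only). The 32121 probes that every array of some group read well above background were fitted with limma 3.58.1 (lmFit, eBayes, R 4.3.3) with 1 mean for each of 4 groups and Benjamini-Hochberg adjustment over all probes within a comparison, at 0.05. A gene was read from its brightest tested probe. Replicate numbers follow the order of deposit. The fit was tested on simulated data with independent noise for each probe, which hold no shared effects of single arrays. The study names no test for its arrays. Precision is limited by how many arrays there are.

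The 10 genes and the lists were chosen with earlier results of these data known. Named beyond the 10 are, for each vascular list and comparison, up to 2 genes called in each direction with the smallest adjusted p (Mcam, Rgs5, Fgfr1, Thbs1, Col18a1, Pdgfrb and, in the WT depot comparison, Pdgfa were added after their values were seen), the 2 brightest genes of each marker list, and the 5 genes with the highest r to Cdh5 or Vegfa. Lists of B lymphocyte and red blood cell markers were also read. The list mean ran from -4.51 to -2.16 for B lymphocytes (4 genes, Cd79b and Ms4a1 the brightest) and from 4.17 to 5.55 for the 2 matched red blood cell genes, Hba-a1 and Alas2. Alternatives were other scalings, background correction, filters, outlier spots kept, series or slide as a block, the second series alone, array weights, trended and robust eBayes, only the groups compared, all probes of a gene, and each array left out.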

Additional observations from a re-analysis of the deposited data

How the results depend on the processing

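No paired analysis was possible because the labels carry no replicate numbers, those used here only naming the arrays. A block for the array series left the counts of the 10 genes called as they were. They were 1 between genotypes in scWAT (4.03% of all probes) and 7 between WT depots (25.9%). Members called between genotypes in scWAT, 1 with all arrays, were 0 with median scaling, without scaling, without the filter or with only the groups compared, 2 with the filter on all arrays or with array weights, 3 without the 5 arrays with muscle transcripts (chosen after seeing the data) and 4 in the second array series alone. This number was 0 to 5 when 1 array was left out, with 0.00934% to 19.8% of all probes called. Between WT depots, 7 (24.8% of all probes) became 4 with array weights (17.1%) or with only the groups compared (12.2%). The number was 2 to 8 when 1 array was left out, with 10.2% to 31.9% of all probes called. In Lr11 -/- mice the depots gave 1 gene, Vegfa, with array weights, where 5.67% of all probes were called. The scWAT effect minus the BAT effect gave 0 to 1 when 1 array was left out, with 0% to 3.71% of all probes called. None of the genes was called between genotypes in BAT in any setting, where at most 0.215% of all probes were called. The cause of these changes was not tested.

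Among the settings with a test, direction turned only in values that were not past the threshold. Under quantile normalization these were Flt1 in BAT between genotypes (-0.0068), Cdh5 between WT depots (-0.20) and Acta2 between Lr11 -/- depots (-0.0514). With median scaling Cdh5 in BAT was 0.0124. Without scaling, Cdh5 (-0.30) and Pecam1 (-0.12) between WT depots and Acta2 between Lr11 -/- depots (-0.0781) turned, and with normexp background Cdh5 between WT depots was -0.0521. In the second series alone Pecam1 was 0.13 in scWAT, 0.028 in BAT and 0.10 for the scWAT effect minus the BAT effect, and in BAT Vwf was 0.069, Kdr -0.0332 and Tek 0.0058. With array weights Vwf in BAT was 0.0233 and Pecam1 for the scWAT effect minus the BAT effect 0.0307. Without the muscle arrays Vwf (0.49), Flt1 (-0.13) and Vegfa (-0.0075) in BAT and Cdh5 (-0.30) and Pecam1 (-0.0524) between WT depots turned. When 1 array was left out, the ranges that crossed 0 were, in scWAT, Pecam1 -0.50 to 0.0231 and Tek -0.0601 to 0.96. In BAT they were Cdh5 -0.16 to 0.0919, Tek -0.10 to 0.0236, Vwf -0.35 to 0.0699, Pecam1 -0.14 to 0.0204 and Kdr -0.0496 to 0.19. For the scWAT effect minus the BAT effect they were Pecam1 -0.45 to 0.0761 and Tek -0.0064 to 1.01. Between WT depots they were Cdh5 -0.50 to 0.30 and Pecam1 -0.10 to 0.42, and between Lr11 -/- depots Acta2 -0.22 to 0.54. In the first series alone, with 1 array a group and no test, Tek in scWAT (-0.32), Acta2 in BAT (-0.50), Pecam1 (-0.23) and Cdh5 (-0.78) between WT depots and Acta2 between Lr11 -/- depots (-1.11) had the other sign, as did Acta2 (0.19), Kdr (-0.34), Flt1 (-0.0772) and Tek (-0.15) for the scWAT effect minus the BAT effect.

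Without scaling the median of all probes moved to -0.25 between WT depots and the calls over all probes from 5038 higher and 2932 lower to 2483 and 4709. Between genotypes in scWAT it moved to -0.20, with 303 higher and 535 lower in place of 1091 and 601. With median scaling these medians were 0.20 and 0.17. Calls over all probes between genotypes in scWAT, 1692 in all, were 0 with only the groups compared, 151 without the filter, 838 without scaling, 911 with the slide as a block, 1093 with median scaling, 3585 without the muscle arrays, 3651 with array weights and 7259 in the second series alone. With 1 array left out they ran from 3 (without Lr11 -/- scWAT replicate 3) to 6371 (without Lr11 -/- scWAT replicate 1), and were 4409 and 4617 without WT scWAT replicates 1 and 3, 222 without WT scWAT replicate 2, 28 without Lr11 -/- scWAT replicate 2 and 145 to 175 without a BAT array. Between WT depots, 7970 became 3993 with the slide as a block, 3920 with only the groups compared and 2361 without the muscle arrays, and ran from 3276 to 10231 with 1 array left out. The 2 of 83 further vascular genes called in scWAT became 22 (5 higher, 17 lower) in the second series alone and 0 with only the groups compared. All 13 probes were well above background, so signal did not limit which of the 10 genes could be read.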
